A study of Mus musculus with 12 samples.

Results

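The Notch pathway genes followed here are the receptors Notch1, Notch2 and Notch3, the ligands Dll1, Jag1 and Jag2, the nuclear proteins Rbpj and Maml1, and the basic helix-loop-helix repressors Hes1 and Hes6. These 10 genes were chosen by name for their place in the pathway, with earlier results of these data known. Their transcripts were looked up in a table of 16385 genes measured by RNA-Seq. The table held 8 of them, and Notch3 and Jag1 were not analysed here. Their levels were measured in AtT-20 cells, a mouse pituitary tumour line that stands in for corticotropes, the cells that make the hormone precursor Pomc. All groups are pools of AtT-20 cells that carry a retrovirally introduced Pax factor under a viral promoter, so each group is a mixture of many integrations in 1 cell line. The methods describe Flag tags at both ends of the constructs and selection of the cells with Geneticin, and NoTag is a word of the labels that is not explained further. The groups are NoTag (genotype given only as Pax7, with no isoform stated), Pax7-465 (a Pax7 cut short after residue 465, which removes the C-terminal OAR motif), Pax3, and the Pax7 splice isoforms Q-GL-, Q+GL+ and Q-GL+. The isoforms differ in the paired DNA-binding domain by the presence of a glutamine (Q) and of a glycine-leucine pair (GL). The paper describes Pax3 as Q+GL-, and its supplement labels the C-terminal deletion mutants of Pax7 as Q+GL- too. Comparisons of Pax3 or Pax7-465 with Q-GL- cells thus also differ in Q. Those with Q+GL+ cells also differ in GL, and those with Q-GL+ cells in both. Each group has 2 libraries, 12 in all, which the study calls biological replicates without saying whether they came from separate infections, so p-values reflect nothing beyond the spread of these libraries, which may be technical. No pool without an introduced Pax factor was analysed here.

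In the Notch pathway a ligand on one cell, of the Delta or Jagged kind, binds a Notch receptor on its neighbour, and the receptor is then cut by an ADAM protease and by gamma-secretase. The freed intracellular part enters the nucleus, binds the DNA-binding protein Rbpj and recruits a Mastermind protein such as Maml1, and the complex activates genes of the Hes and Hey families. The Hes and Hey proteins are repressors that hold back proneural factors. In the developing pituitary, Notch signalling and Hes1 are known for keeping progenitors from differentiating. Transcript levels do not measure receptor cleavage or the activity of the pathway.

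Levels are in FPKM, in which fragments are divided by the length of the transcript and by the total of the library, so that genes can be compared within a library. Read counts are not in the table and the depth behind each value is unknown. Differences are on the log2(FPKM + 1) scale from 1 limma-trend fit of all 12 libraries, and a gene passed the test where its Benjamini-Hochberg adjusted p over the 12578 genes tested was under 0.05. A gene was tested where 2 or more of the 12 libraries reached 1 FPKM. Of the 8 genes found, 7 were tested, and Notch1 was too low to be tested. In this bulk RNA, fewer cells with a transcript and less of it per cell cannot be told apart.

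Pax7 was at 0.159 and 0.161 FPKM in the Pax3 libraries and between 93.9 and 159 FPKM in the others. This gene-level value does not show which isoform or tag was introduced, and the reads themselves were not examined here. Tbx19, which encodes the corticotrope factor Tpit, was between 116 and 143 FPKM in the 12 libraries, and Lhb, a gonadotrope hormone gene, was listed at 0 in all of them. The NoTag libraries stood apart. Their summed FPKM was 627305 and 666609, against 413794 to 483161 in the other 10, their median log2 level was 3.85 against 3.60 to 3.70, and 733 genes were above 0 in both NoTag libraries and in no other. The correlation of log2 levels between NoTag and other libraries was 0.942 to 0.954, below the 0.979 to 0.988 between libraries of different groups among the other 10. For this reason the 5 other groups were compared among themselves first, and differences to NoTag are given separately. Values after centring on the median gene are given for NoTag over Q+GL+ cells and not for NoTag over the other groups.

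**Figure D1:**
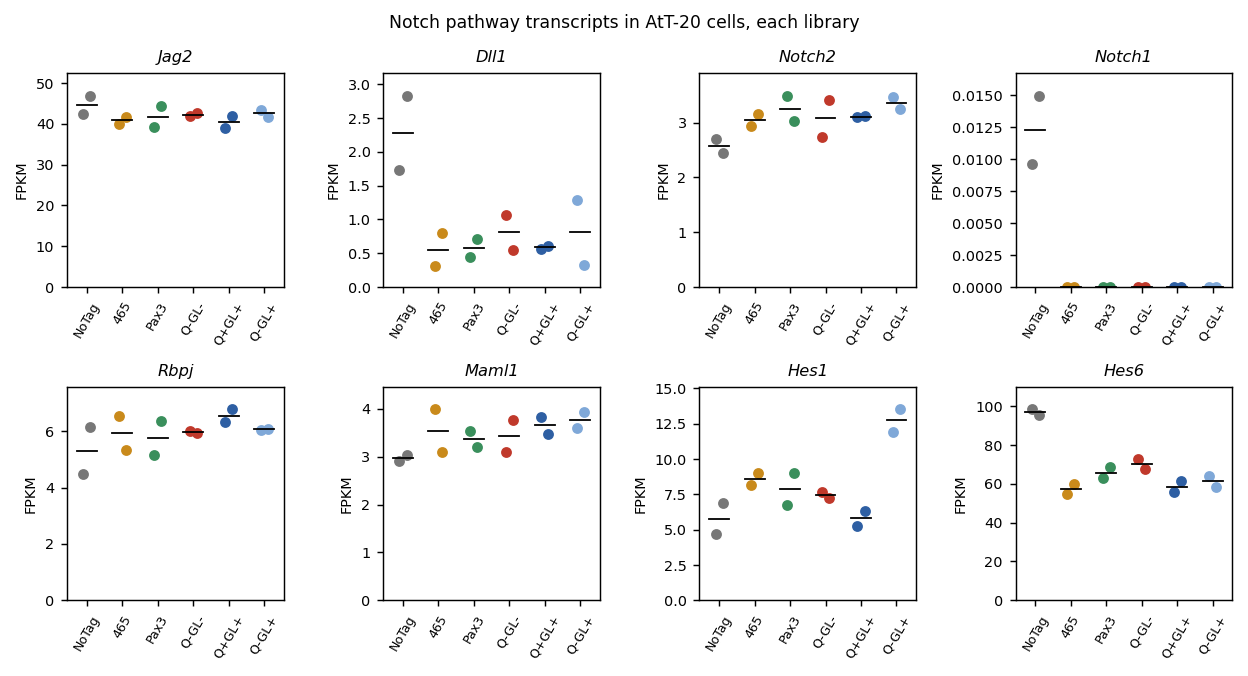
FPKM (linear axes from 0, a separate scale for each gene) of the 8 Notch pathway genes in each library, with groups along the horizontal axis, 1 point per library and a black line at the mean of the 2 libraries. Hes1 reaches 11.95 and 13.5 FPKM in Q-GL+ cells and at most 8.99 FPKM elsewhere, Hes6 and Dll1 are highest in NoTag cells, and the other genes lie close together in all groups.

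Of the ligands analysed here Jag2 had the highest level, and Dll1 was scarce. Jag2, at 12:112907819-112929776 on the minus strand of GRCm38, had FPKM levels of 40.1 and 41.6 (Pax7-465), 39.1 and 44.3 (Pax3), 41.9 and 42.7 (Q-GL-), 39.0 and 42.0 (Q+GL+) and 43.4 and 41.7 (Q-GL+). The libraries of these groups were nearly level, and the highest group mean was 1.05 times the lowest. Over the 10 pairs of these 5 groups, the log2 difference of Jag2 lay between -0.07 and 0.06, and all of the 95% intervals lay within -0.25 to 0.24. No pair passed the test.

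Dll1, a Delta ligand at 17:15367354-15376872 on the minus strand, had FPKM levels of 0.314 and 0.792 (Pax7-465), 0.442 and 0.709 (Pax3), 1.07 and 0.545 (Q-GL-), 0.568 and 0.609 (Q+GL+) and 1.29 and 0.328 (Q-GL+). The 2 libraries of a group differed here as much as the groups did. Its intervals were the widest of the 7 genes, reaching from -0.80 to 0.75 over the 10 pairs. It passed the filter on low values through NoTag and 1 library each of Q-GL- and Q-GL+ cells.

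Of the receptors analysed here Notch2 was the one high enough to be tested, at a low level. It lies at 3:98013527-98150361 on the plus strand and had FPKM levels of 2.93 and 3.15 (Pax7-465), 3.48 and 3.03 (Pax3), 2.75 and 3.41 (Q-GL-), 3.10 and 3.12 (Q+GL+) and 3.47 and 3.25 (Q-GL+). The groups overlapped or nearly touched, with log2 differences between -0.11 and 0.06 over the 10 pairs and intervals within -0.35 to 0.31. Gm42819 and Gm42820, transcripts still to be tested experimentally listed in the same table, overlap Notch2 on its own strand, so fragments there may have been shared. Notch1, at 2:26457903-26516663 on the minus strand, was listed at 0 in all 10 libraries other than NoTag and at 0.00962 and 0.0149 FPKM in the NoTag libraries. No fold is given for it, and the table holds an antisense gene, 0610009E02Rik, that overlaps it. Notch4, the remaining receptor in the table, was at most 0.682 FPKM in any of the 12 libraries.

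For the nuclear partners of the cleaved receptor no difference among the 5 groups passed the test. Rbpj, the DNA-binding protein of the complex, lies at 5:53466152-53657362 on the plus strand. Its level in FPKM was 6.54 and 5.32 (Pax7-465), 5.15 and 6.37 (Pax3), 6.01 and 5.93 (Q-GL-), 6.33 and 6.77 (Q+GL+) and 6.04 and 6.08 (Q-GL+). The Q+GL+ libraries lay at the upper end, but the log2 differences over the 10 pairs lay between -0.16 and 0.10 with intervals within -0.46 to 0.39. A processed pseudogene, Rbpj-ps3, is also in the table, and fragments may have been split between the copies. Maml1, a Mastermind coactivator at 11:50255634-50292311 on the minus strand, had FPKM levels of 3.99 and 3.09 (Pax7-465), 3.54 and 3.19 (Pax3), 3.09 and 3.76 (Q-GL-), 3.83 and 3.48 (Q+GL+) and 3.60 and 3.92 (Q-GL+). These libraries overlapped in most pairs, with log2 differences between -0.12 and 0.05 and intervals within -0.39 to 0.32. An antisense gene in the table, Gm26542, overlaps Maml1, and the strand setting of the counting step is not given in the sources used here.

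RefSeq promoters, from 250 bases before to 50 bases after a transcript start in GRCm38.p6, were on hand for 7 of the 8 genes and not for Hes1, with 2 windows each for Rbpj, Hes6 and Dll1. The core letters TGGGAA that Rbpj is known to bind, searched on both strands as TGGGAA or TTCCCA, were found for Rbpj alone among the 7, in both of its windows, while 25.6% of all 32851 promoters hold them. The Rbpj window with 2 matches, in capitals, is shown because of them. The other Rbpj window, chr5:53590236-53590535, overlaps it, and its 1 match is the same TTCCCA as in the window shown. A Hes6 window is shown because Hes6 is the second Hes gene of the results. The 2 matches shown do not overlap each other, and a match is a string of letters and not a measured binding site.
Rbpj promoter, plus strand, chr5:53590096-53590395: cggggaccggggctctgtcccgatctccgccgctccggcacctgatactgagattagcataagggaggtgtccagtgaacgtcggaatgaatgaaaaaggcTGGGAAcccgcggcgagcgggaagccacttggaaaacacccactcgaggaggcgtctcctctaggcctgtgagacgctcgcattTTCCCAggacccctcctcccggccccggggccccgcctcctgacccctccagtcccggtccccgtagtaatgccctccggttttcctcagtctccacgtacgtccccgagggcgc
Hes6 promoter, minus strand, chr1:91413989-91414288: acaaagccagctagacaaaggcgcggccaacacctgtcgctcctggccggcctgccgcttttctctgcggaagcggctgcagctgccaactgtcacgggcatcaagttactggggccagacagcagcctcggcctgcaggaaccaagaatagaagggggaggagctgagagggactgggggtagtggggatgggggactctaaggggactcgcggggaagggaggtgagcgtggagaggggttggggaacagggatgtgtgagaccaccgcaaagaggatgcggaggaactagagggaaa

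Hes1 was the gene of the 7 that differed among the 5 groups. It encodes the repressor through which Notch signalling is best known to act, and lies at 16:30064384-30067796 on the plus strand, with 4 exons in its longest transcript. Its level in FPKM was 8.16 and 8.98 (Pax7-465), 6.76 and 8.99 (Pax3), 7.67 and 7.21 (Q-GL-), 5.28 and 6.35 (Q+GL+) and 11.95 and 13.5 (Q-GL+). Both Q-GL+ libraries lay above all 8 other libraries of these groups, and both Q+GL+ libraries lay below them all. The group means in FPKM were 8.57 ± 0.582 (Pax7-465), 7.88 ± 1.58 (Pax3), 7.44 ± 0.321 (Q-GL-), 5.81 ± 0.763 (Q+GL+) and 12.7 ± 1.11 (Q-GL+), each as mean ± SD with n = 2. The highest mean was 2.19 times the lowest, whereas for the other 6 tested genes this ratio was between 1.05 and 1.46. In the test for any difference among the 5 groups, Hes1 passed with an adjusted p of 0.0218, and 4.78% of all genes tested passed. It was 1 of 7 members to do so and ranked 354 of the 12578 genes by the p of that test. This call was lost without Q-GL- replicate 1 (adjusted p = 0.053) or replicate 2 (0.0552), Q+GL+ replicate 1 (0.0671), and Q-GL+ replicate 1 (0.0749) or replicate 2 (0.134). It was also lost without the filter on low values (0.058), and its adjusted p ranged from 0.00525 to 0.134 over 21 alternatives.

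The pair Q+GL+ and Q-GL+ differs in the glutamine, with GL present in both. Each isoform was expressed in pools of its own, so the glutamine and the pool cannot be told apart here. Hes1 averaged 5.81 FPKM in Q+GL+ cells against 12.7 FPKM in Q-GL+ cells. The log2 fold change was -1.01 (SE 0.16, 95% interval -1.36 to -0.67, adjusted p = 0.0109). In this comparison 0.962% of all genes tested passed, and 1 of the 7 members did. The other 6 members had log2 differences between -0.13 and 0.10. The Hes1 call was lost without Q+GL+ replicate 1 (adjusted p = 0.104), without Q-GL+ replicate 1 (adjusted p = 0.0701) and without Q-GL+ replicate 2 (adjusted p = 0.124), while the difference itself stayed between -1.13 and -0.90 over 22 alternatives.

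The pair Q-GL- and Q-GL+ differs in the glycine-leucine pair, with the glutamine absent from both. Here too the isoform and the pool cannot be told apart. Hes1 averaged 7.44 FPKM in Q-GL- cells against 12.7 FPKM in Q-GL+ cells. The log2 fold change was -0.70 (SE 0.16, 95% interval -1.05 to -0.36, adjusted p = 0.0292). Here 4.17% of all genes tested passed, and again 1 of the 7 members. This call rested on all 4 libraries. Leaving out Q-GL- replicate 1 gave an adjusted p of 0.123, Q-GL- replicate 2 gave 0.163, Q-GL+ replicate 1 gave 0.0833 and Q-GL+ replicate 2 gave 0.219, and a test without the filter gave 0.0593, with the difference between -0.78 and -0.62 throughout. Both comparisons use the same Q-GL+ libraries and are not independent of each other. Cells labelled Q+GL- were not analysed here. The 2 of 4 markers of pituitary stem or supporting cells found in the table, Sox2 and Sox9, summed to 4.10 and 4.18 FPKM in Q-GL+ libraries, within the 3.796 to 5.09 FPKM of the other 8 libraries of these groups.

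Between the remaining groups the differences of Hes1 were smaller and did not pass. In Q-GL- over Q+GL+ cells its log2 difference was 0.31 (95% interval -0.03 to 0.66, adjusted p = 0.41). In Pax3 over Q+GL+ cells it was 0.37 (0.03 to 0.72, adjusted p = 0.45), and in Pax7-465 over Q+GL+ cells 0.49 (0.15 to 0.84, adjusted p = 0.19). In Pax3 over Q-GL- cells it was 0.06 (-0.28 to 0.41) and in Pax7-465 over Q-GL- cells 0.18 (-0.16 to 0.53). The intervals leave room for differences of up to 0.84. In the order of levels, from Q-GL+ through Pax7-465, Pax3 and Q-GL- to Q+GL+ cells, no 2 neighbours differed past the test. The widest step was that between Pax7-465 and Q-GL+ cells, with a log2 difference of -0.52 and an adjusted p of 0.22, where 0.795% of all genes tested passed and 0 of 7 members. In Pax3 over Q-GL+ cells the difference was -0.64 with an adjusted p of 0.12, where 0.708% of all genes passed and 0 of 7 members.

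**Figure D2:**
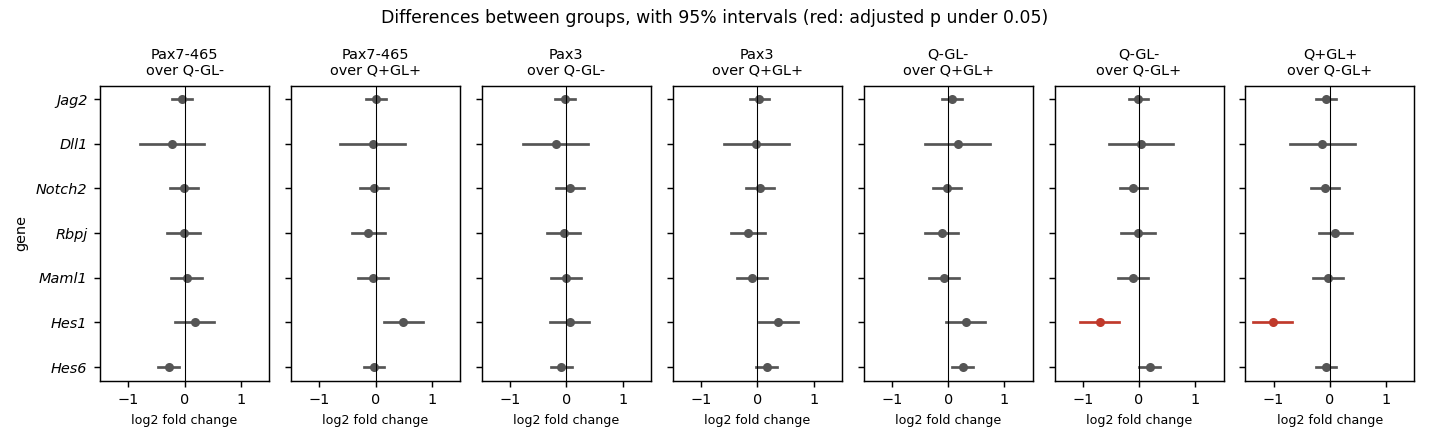
Log2 fold change (horizontal axis, log2(FPKM + 1) scale) of the 7 tested Notch pathway genes (rows) in 7 comparisons among the groups other than NoTag, 1 panel each, with points at the estimate and lines over the 95% interval. The 2 differences past the test, in red, are Hes1 at -0.70 in Q-GL- over Q-GL+ cells and at -1.01 in Q+GL+ over Q-GL+ cells, and the widest intervals are those of Dll1.

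Hes6 was the most abundant of the 8 genes. It encodes a Hes family protein that in the mouse is known to counter Hes1 rather than to carry the Notch signal, and lies at 1:91411483-91414038 on the minus strand. Its level in FPKM was 54.8 and 60.2 (Pax7-465), 63.1 and 68.4 (Pax3), 72.6 and 67.5 (Q-GL-), 55.6 and 61.3 (Q+GL+) and 63.9 and 58.6 (Q-GL+). The mean was highest in Q-GL- cells, whose libraries overlapped those of Pax3 cells and of no other group. The log2 difference was 0.26 in Q-GL- over Q+GL+ cells (95% interval 0.07 to 0.44, adjusted p = 0.17), 0.19 in Q-GL- over Q-GL+ cells (0.01 to 0.37, adjusted p = 0.25) and -0.28 in Pax7-465 over Q-GL- cells (-0.47 to -0.10, adjusted p = 0.22). None of these passed the test, and the test over the 5 groups gave an adjusted p of 0.20. With quantile normalization, Hes6 passed in Q-GL- over Q+GL+ cells (0.22, adjusted p = 0.0427) and over the 5 groups (adjusted p = 0.0329).

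In the other 5 comparisons described among these groups no member passed the limma test. The share of all genes that passed was 2.15% in Q-GL- over Q+GL+ cells, 0.262% in Pax3 over Q+GL+ cells, 4.33% in Pax3 over Q-GL- cells, 1.33% in Pax7-465 over Q+GL+ cells and 0.445% in Pax7-465 over Q-GL- cells. At an unadjusted p under 0.05, the number of members was 1 of 7 in each of them but Pax3 over Q-GL- cells, where it was 0. Of all 12578 genes tested, 1800, 1285, 2294, 1653 and 1354 had such a p, in the same order of comparisons. For Notch2, Dll1, Jag2, Rbpj and Maml1 the adjusted p over the 5 groups was between 0.90 and 0.94.

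The ratio of Hes6 to Hes1 FPKM within a library was 6.71 and 6.70 in Pax7-465 cells, 9.33 and 7.61 in Pax3 cells, 9.47 and 9.36 in Q-GL- cells, 10.5 and 9.65 in Q+GL+ cells, and 5.35 and 4.34 in Q-GL+ cells. The Q-GL+ libraries had the lowest ratios of the 10. With 2 libraries a group, an exact permutation test of this ratio between a pair of groups cannot give a p below 0.333, and none was run.

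In NoTag cells Hes6 and Dll1 were higher. Hes6 had 98.4 and 95.5 FPKM in NoTag cells, against 55.6 and 61.3 FPKM in Q+GL+ cells, and both NoTag libraries lay above all 10 others. The log2 fold change in NoTag over Q+GL+ cells was 0.72 (SE 0.08, adjusted p = 3.2e-05), and over each of the 5 other groups it was between 0.46 and 0.75, past the test in all 5. Dll1 had 1.73 and 2.82 FPKM in NoTag cells, against 0.568 and 0.609 FPKM in Q+GL+ cells, and both NoTag libraries again lay above all others. Its log2 fold change was 1.02 over Q+GL+ cells (SE 0.26, adjusted p = 0.0077) and between 0.85 and 1.07 over the 5 groups, past the test in all 5. Without NoTag replicate 2 the Dll1 difference over Q+GL+ cells was 0.78 and no longer passed. For Hes6 and Dll1 the differences of NoTag over the groups other than Q+GL+ were neither centred nor refitted without a library. In NoTag over Q+GL+ cells 46% of all genes tested passed, and 2 of the 7 members did, so the share of members was no larger than that of all genes. Against the other groups the members past the test were 3 of 7 over Pax7-465 (45.8% of all genes), 2 of 7 over Pax3 (47.5%), 2 of 7 over Q-GL- (39.8%) and 3 of 7 over Q-GL+ (48.6%).

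The calls of several members in NoTag cells depended on the scale. The median gene was 0.18 higher on the log2 scale in NoTag over Q+GL+ cells, and 80.4% of the genes that passed were higher, against 50.4% after each library was centred on its median gene. After centring, Hes6 (0.54, adjusted p = 9.3e-05) and Dll1 (0.84, adjusted p = 0.024) were still higher. Notch2 (-0.39, adjusted p = 0.017), Rbpj (-0.46, adjusted p = 0.019) and Maml1 (-0.41, adjusted p = 0.025), which were at -0.20, -0.27 and -0.23 without centring and did not pass, passed as lower. Jag2 was at 0.13 without centring and at -0.05 with it, and passed on neither scale. The Rbpj value rested on single libraries, since without centring it was -0.08 (adjusted p = 0.699) without NoTag replicate 1 and -0.46 (adjusted p = 0.0275) without NoTag replicate 2. Notch2 had 2.71 and 2.45 FPKM, Rbpj 4.48 and 6.14 FPKM, Maml1 2.90 and 3.03 FPKM, and Jag2 42.4 and 46.8 FPKM in the NoTag libraries.

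Hes1 had 4.66 and 6.87 FPKM in NoTag cells, near the 5.28 and 6.35 FPKM of Q+GL+ cells. The difference of -0.02 (95% interval -0.37 to 0.32) did not pass the test, and centring made it -0.21. In NoTag over Q-GL+ cells Hes1 fell by 1.04 on the log2 scale (SE 0.16, adjusted p = 2.6e-04), and in NoTag over Pax7-465 cells by 0.52 (adjusted p = 0.0186). Its difference was -0.40 in NoTag over Pax3 cells (adjusted p = 0.056) and -0.34 in NoTag over Q-GL- cells (adjusted p = 0.11), both short of the test. The differences over these groups other than Q+GL+ are given without centring. The genes that mark leukocytes summed to 1.62 to 2.05 FPKM in NoTag libraries, against 0.275 to 1.39 FPKM in the other 10, from 2 of 3 genes found in the table. The sum was carried by Lyz2, at 1.24 and 1.48 FPKM in NoTag libraries against 0.0895 to 0.909 FPKM in the other 10, while Cd68 lay within their range. Among the melanotrope markers, Pcsk2 was at 64.9 and 65.6 FPKM in NoTag libraries against 11.7 to 36.6 FPKM in the other 10. Oacyl, another of them, was at 6.68 to 6.88 FPKM, within the 1.69 to 11.1 FPKM of the other 10. Of the stem or supporting cell markers, Sox2 was lower, at 2.74 to 3.10 FPKM against 3.77 to 4.96 FPKM. Sox9 was higher, at 0.292 to 0.463 FPKM against 0.0248 to 0.167 FPKM. The corticotrope hormone gene Pomc was at 10547 to 10680 FPKM in NoTag libraries against 5112 to 9158 FPKM in the other 10. The corticotrope markers Crhr1 (0.410 to 0.484 FPKM) and Tbx19 (140 to 143 FPKM) also lay above the other 10. Pcsk1 (280 to 300 FPKM) and Nr3c1 (34.1 to 35.4 FPKM), of the same list, lay within their range. Of the fibroblast genes, Pdgfra was above 0 in NoTag libraries alone. Col1a1 was at 0.396 to 0.668 FPKM against 0.414 to 1.07 FPKM. All marker values are as deposited and were not centred, while the median gene was 0.18 higher on the log2 scale in NoTag over Q+GL+ cells. The part of that shift in the marker levels was not tested. Nor was the part of these markers in the NoTag differences.

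The rest of the pathway was followed in 8 lists of 83 genes that include the members, of which 71 were in the table and 59 were tested. Among the 5 groups other than NoTag, 2 of the 59 (3.39%) passed the test for any difference, against 4.78% of all genes, and both, Hes1 and Hey1, belong to the list of target and Hes or Hey genes, of which 8 were tested. None of the genes tested for ligands (3), receptors (1), receptor cleavage (9), receptor glycosylation (5), ubiquitin ligases and endocytic regulators (12), nuclear effector and corepressors (18) or proneural factors (3) passed. In the single comparisons described among these groups at most 1 of the 59 (1.69%) passed on the scale as deposited. Of all genes tested, 0.262% to 4.33% passed in them. None passed in Pax3 over Q+GL+, Pax3 over Q-GL- or Pax7-465 over Q-GL- cells. There 7, 10 and 6 of the 59 genes had an unadjusted p under 0.05, against 1285, 2294 and 1354 of all 12578 genes. After centring on the median gene, 3 of the 59 (5.08%) passed in Q+GL+ over Q-GL+ cells (Numbl higher, Hes1 and Id1 lower). Of all 12578 genes, 217 passed there with centring. In Q-GL- over Q-GL+ cells 2 (3.39%) then passed (Hes1 and Id1 lower), against 732 of all genes. In Pax7-465 over Q+GL+ cells 2 (3.39%) passed (Hey1 higher, Numbl lower), against 243. In Pax3 over Q-GL- cells 1 (1.69%) passed (Neurl1a lower), against 656. The centred share of the 59 was thus below that of all genes in Q-GL- over Q-GL+ and Pax3 over Q-GL- cells. It was above in Q+GL+ over Q-GL+ and Pax7-465 over Q+GL+ cells. The count of the 59 was unchanged in the other comparisons. The median log2 difference of the 59 genes was close to that of all genes in each, for example -0.02 against 0.01 in Q+GL+ over Q-GL+ cells and 0.04 against 0.04 in Q-GL- over Q-GL+ cells.

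Hey1, a Hairy-related repressor and a further direct target of Notch, had another order of levels than Hes1. Its level in FPKM was 8.78 and 9.11 (Pax7-465), 4.92 and 5.67 (Pax3), 8.29 and 7.22 (Q-GL-), 4.74 and 6.14 (Q+GL+) and 6.12 and 6.08 (Q-GL+). It was high in Pax7-465 and Q-GL- cells and not in Q-GL+ cells, where Hes1 was highest. In Pax7-465 over Q+GL+ cells Hey1 rose by 0.63 (SE 0.12, adjusted p = 0.028). It was the 1 gene of the 59 to pass there (1.69%), against 1.33% of all genes tested. This call was lost without Q+GL+ replicate 1 (0.48, adjusted p = 0.176), without either Pax7-465 library (adjusted p = 0.114 and 0.136), without the filter (0.0548) and in a fit of these groups alone (0.0611). In Pax7-465 over Pax3 cells it rose by 0.66 (adjusted p = 0.025), where 1.16% of all genes tested passed. In Q-GL- over Q+GL+ cells its difference was 0.45 (95% interval 0.18 to 0.72, adjusted p = 0.10) and in Q-GL- over Q-GL+ cells 0.30 (0.03 to 0.57, adjusted p = 0.22), both short of the test.

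Id3, an inhibitor of basic helix-loop-helix factors, had 140 and 140 FPKM in Q-GL- cells, against 104 and 109 FPKM in Q+GL+ cells. The log2 fold change was 0.39 (SE 0.08, adjusted p = 0.030). This was the 1 call among the 59 genes in that comparison (1.69%), against 2.15% of all genes tested. It was lost in 9 of 22 alternatives, among them a fit without the NoTag libraries (adjusted p = 0.0572) and each omission of 1 of the 4 libraries compared (adjusted p = 0.11 to 0.228).

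**Figure D3:**
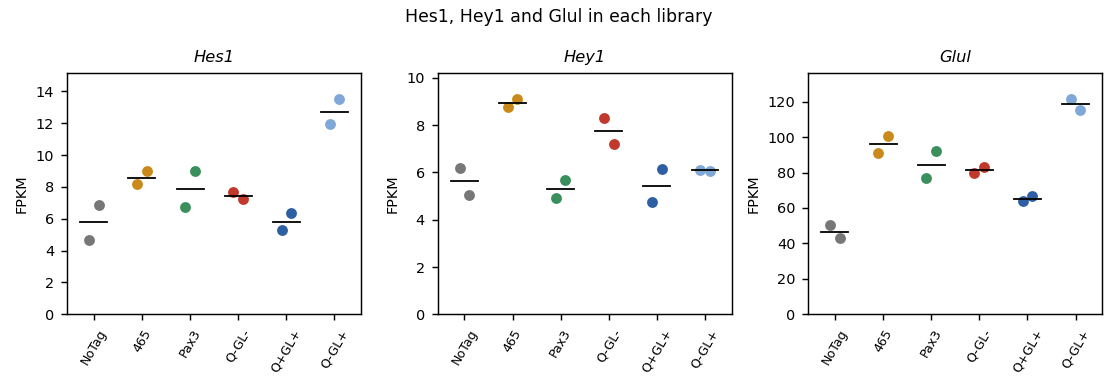
FPKM (linear axes from 0) of Hes1, Hey1 and Glul in each library, with groups along the horizontal axis, 1 point per library and a black line at the mean of the 2 libraries. Hes1 and Glul are highest in Q-GL+ cells, whereas Hey1 is at 8.78 and 9.11 FPKM in Pax7-465 cells and at 6.12 and 6.08 FPKM in Q-GL+ cells.

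In NoTag over Q+GL+ cells 19 of the 59 pathway genes were higher and 3 lower, or 37.3%, against 46% of all genes. The genes with the smallest adjusted p beside the members were Id2, another inhibitor of basic helix-loop-helix factors, Snw1, which encodes a nuclear partner of Rbpj also known in splicing, and Dll3, a Delta-like protein known to hinder Notch within the cell. Id2 averaged 172 ± 2.41 FPKM in NoTag cells and 118 ± 0.136 FPKM in the Q+GL+ pool (SD, n = 2 each), or 0.55 higher on the log2 scale (adjusted p = 6.1e-05). Snw1 averaged 88.9 ± 2.08 FPKM in NoTag cells and 56.1 ± 2.55 FPKM in the Q+GL+ pool, or 0.66 higher on the log2 scale (adjusted p = 8.2e-05). Dll3 averaged 14.0 ± 0.591 FPKM in NoTag cells and 8.72 ± 0.823 FPKM in the Q+GL+ pool, or 0.63 higher on the log2 scale (adjusted p = 2.2e-04). All 3 kept their call in 21 alternatives. After centring on the median gene, 12 of the 59 were higher and 16 lower, or 47.5%. Of all 12578 genes tested, 5383 passed with centring, 2714 higher and 2669 lower. The larger number of higher genes among the 59 thus turned with the scale.

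By list, the genes that passed in NoTag over Q+GL+ cells without centring were 2 of 3 ligands, 0 of 1 receptor, 2 of 9 in receptor cleavage, 3 of 5 in glycosylation, 8 of 12 ubiquitin ligases and endocytic regulators, 3 of 18 nuclear effectors and corepressors, 4 of 8 target and Hes or Hey genes, and 0 of 3 proneural factors. Of all genes tested, 46% passed in this comparison, and no list was tested as a set. The glycosylation genes were Lfng, Mfng and Poglut1, higher on this scale, of which Lfng and Mfng encode Fringe enzymes that change which ligands a receptor answers to. After centring, Lfng and Mfng were still higher, Poglut1 did not pass, and Pofut1 and Rfng, a further Fringe gene, passed as lower. The 3 lower genes were Neurl1b, Numbl and Id1.

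**Figure D4:**
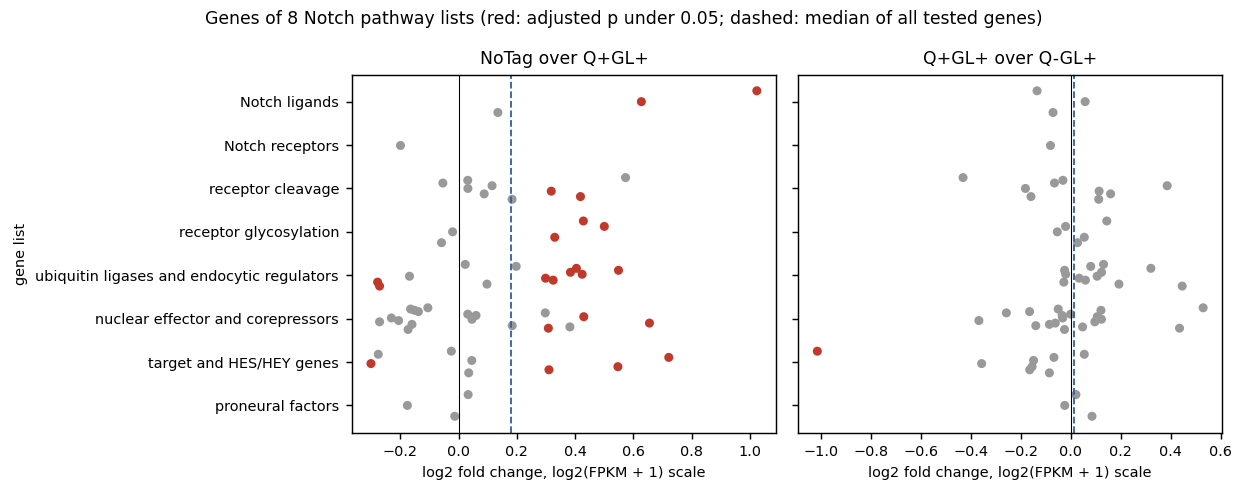
Log2 fold change (horizontal axis, log2(FPKM + 1) scale) of the 59 tested genes in 8 Notch pathway lists (rows), in NoTag over Q+GL+ cells at left and in Q+GL+ over Q-GL+ cells at right, with genes past the test in red, a solid line at 0 and a dashed line at the median of all tested genes. At left 22 genes are red around a median of 0.18, and at right Hes1 is the 1 red gene, at -1.01.

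The transcripts whose log2 levels ran most like those of Hes1 over the 10 libraries other than NoTag were Glul, which encodes glutamine synthetase, with a Pearson r of 0.962, Cst6, which encodes a cystatin, with 0.957, and Gsn, which encodes the actin-binding protein gelsolin, with 0.937. These are the highest of all tested genes over 10 libraries in groups of 2 and are given as a description with no test. Glul had 121 and 115 FPKM in Q-GL+ cells and between 63.9 and 100.4 FPKM in the other 8 of these libraries, with Q+GL+ cells lowest at 63.9 and 66.6 FPKM, as for Hes1. In NoTag libraries Glul had 50.2 and 43.1 FPKM, below all of the other 10, whereas Hes1 had 4.66 and 6.87 FPKM against 5.28 to 13.5 FPKM. The likeness did not extend to Cst6, at 33.6 and 33.2 FPKM in NoTag libraries against 1.81 to 3.99 FPKM in the other 10. Nor did it extend to Gsn, at 24.9 and 22.8 FPKM in NoTag libraries against 8.23 to 13.3 FPKM in the other 10.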

How the data were processed

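RNA-Seq of 12 libraries in 6 groups was used. According to the methods and the submitters' processing notes, the authors trimmed strand-specific paired-end reads of rRNA-depleted RNA with Trimmomatic, aligned them to GRCm38 (mm10) under Ensembl gene models in TopHat2 and quantified genes with HOMER. The deposited values were taken as FPKM made by the authors, the unit not being named in the table itself. For the RNA-Seq, the versions of Trimmomatic, TopHat2 and HOMER, the strand setting of HOMER and the normalization total are not given in the sources used here. The authors name edgeR for their own comparisons, but no counts were used here, so edgeR was not run. A further 4 columns of per-sample values were not used. At most 6.66% of low values fell within 2% of 1 common step, so reads were not recovered and the depth per sample is unknown.

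Genes had to reach 1 FPKM in 2 or more libraries, which 12578 did, and their log2(FPKM + 1) values were fitted with limma-trend (limma 3.58.1, statmod 1.5.0, R 4.3.3, robust option) with 1 coefficient per group. Benjamini-Hochberg adjustment ran over all tested genes within each comparison, with a threshold of 0.05. There were 8 comparisons described, 1 F test over the 5 groups other than NoTag, and the remaining 7 pairs of groups, from the same fit, for the order of levels and the values of members and Hey1. The alternatives were run for the 8 comparisons and the F test. The steps were tested on simulated data. The rest ran in Python (3.11.15; pandas 2.3.3), with plots by matplotlib 3.10.9. Gene positions are those of GRCm38 from GENCODE, and promoters are from RefSeq GRCm38.p6.

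The members and gene lists were chosen with earlier results of these data known. Named genes were the members, up to 3 other list genes per comparison with the smallest adjusted p among those past the test, Pax7 and Tbx19 as checks, and the 3 genes most correlated with each member past the F test. Further genes were named after their values were seen (Notch4, the glycosylation genes, the 3 lower list genes, Neurl1a, Lhb and the other cell type markers). Alternatives were quantile normalization, median centring, a fit without trend or without the robust option, no filter, a pseudocount of 0.1, a stricter filter at 5 FPKM, a replicate block, a fit without NoTag, a fit of only the groups compared, and each library left out in turn.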

Additional observations from a re-analysis of the deposited data

How the results depend on the processing

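Among the member differences in the comparisons described that passed the test, with or without centring, or had an unadjusted p under 0.05, none changed sign under an alternative. These differences were chosen in the same libraries that the alternatives refit, so a change of sign was unlikely from the start. Each call of Hes1 among the 5 groups was lost without at least 1 library. With 2 libraries a group and unknown depth, low genes such as Dll1 and Notch1 are the least certain. Dll1 in NoTag over Q+GL+ cells ranged from 0.78 to 1.75, and Rbpj there ranged from -0.46 without NoTag replicate 2 (adjusted p = 0.0275) to -0.08 without NoTag replicate 1 (adjusted p = 0.699). Calls in the 7 further pairs of groups were not carried through the alternatives.

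The number of genes past the test also moved. With quantile normalization it was 896 in Q-GL- over Q-GL+ cells (524 in the fit reported), 419 in Q+GL+ over Q-GL+ cells (121), 484 in Q-GL- over Q+GL+ cells (271), 133 in Pax3 over Q+GL+ cells (33), 891 in Pax3 over Q-GL- cells (545), 409 in Pax7-465 over Q+GL+ cells (167), 109 in Pax7-465 over Q-GL- cells (56) and 1149 over the 5 groups (601). The share of higher genes among them was 62.4% (73.5% in the fit reported), 48.9% (47.1%), 68.4% (83.4%), 55.6% (33.3%), 40.4% (16.5%), 55% (65.3%) and 31.2% (21.4%) in the same order of comparisons, and 47.3% (80.4%) in NoTag over Q+GL+ cells. With median centring the count was 217 in Q+GL+ over Q-GL+ cells and 55 in Pax3 over Q+GL+ cells, and in Pax3 over Q-GL- cells the share of higher genes was 33.1%. In fits of only the groups compared it was 912 in Q-GL- over Q-GL+, 236 in Q+GL+ over Q-GL+, 83 in Pax7-465 over Q+GL+ and 31 in Pax7-465 over Q-GL- cells. Without the NoTag libraries it was 76 in Q+GL+ over Q-GL+, 17 in Pax3 over Q+GL+ and 36 in Pax7-465 over Q-GL- cells. In Pax3 over Q+GL+ cells it was also 12 without trend, 9 without the robust option and 11 without the filter. Leaving out 1 library at a time gave 163 to 691 genes in Q-GL- over Q-GL+, 19 to 171 in Q+GL+ over Q-GL+, 71 to 344 in Q-GL- over Q+GL+, 1 to 27 in Pax3 over Q+GL+, 187 to 725 in Pax3 over Q-GL-, 52 to 188 in Pax7-465 over Q+GL+, 9 to 75 in Pax7-465 over Q-GL-, 3971 to 6149 in NoTag over Q+GL+ cells, and 279 to 706 over the 5 groups. The cause of these shifts was not tested.

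No consistent pairing by replicate number was seen. The correlation of same-numbered deviations between groups was -0.158 to 0.173 and over 0.1 in 2 of 15 pairs of groups. This check cannot show whether same-numbered libraries were prepared together. With a replicate block the count in Pax3 over Q+GL+ cells was 19 in place of 33, and no call of a member changed.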
